A study of Homo sapiens with 4 samples.

Results

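Cassette exons of genes for RNA processing factors and of genes named as DEAD-box or DEAH-box helicases were examined in HEK293T clones with and without RBFOX2. The genes were taken by symbol alone: RBM genes, SF1, the SF3A, SF3B and U2AF genes, the LUC7L genes, PRPF, SNRNP and SNRP genes, DDX and DHX helicase genes, CPSF and CSTF genes, and THOC genes. The symbols matched 428 of the 31408 cassette exon events in the authors' deposited table, which cover 395 of 27483 unique exons and 125 of 9172 genes. Each event records how often 1 internal exon is joined to both neighbouring exons and how often it is skipped. A gene had between 1 and 16 events (median 3), and 32 genes had a single event. A further 40 protein-coding genes whose GENCODE 29 symbol fits the same pattern had no event in the table, among them SF3A1, SF3A2, SF3B4, CSTF1, DHX38 and THOC3.

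By the cell line label, the RNA came from HEK293T, a human embryonic kidney cell line. The growth protocol instead gives the catalogue number of HEK293. The labels describe 2 clones with genotype WT and 2 with genotype RBFOX2 KO. All 4 had received the Cas9 plasmid PX459 and pgRGFP with guides on both sides of RBFOX2, and each had been grown from 1 sorted cell for 3 weeks, so each library stands for 1 clone. Libraries were strand-specific and made from total RNA depleted of ribosomal RNA. The table compares a first with a second set of 2 libraries each, and neither its header nor the labels say which set is WT. Differences are therefore given as first minus second set, never as gain or loss in the knockout. The 6 columns with values per library carry no clone name and were not used, so levels in single clones, the spread between clones and the read depth behind each event are not given. RBFOX2, which the sample titles call by its older name RBM9, had 0 events under either symbol, so the targeted gene itself could not be checked. The table holds no expression level, so markers of the cell line could not be checked.

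The spliceosome removes introns with small nuclear ribonucleoproteins (snRNPs). U1 snRNP, helped by proteins of the LUC7 and PRPF39 families, recognises the 5′ splice site, while SF1 and the U2AF proteins recognise the branch point and the 3′ splice site before U2 snRNP, with its SF3A and SF3B subunits, takes over. PRPF and DEAH-box proteins then remodel the complex, CPSF and CSTF proteins cleave the transcript for polyadenylation, and THO subunits link processing to export. Genes for splicing factors often carry exons that bring a stop codon into frame or shift the frame. Transcripts that include such an exon are commonly degraded by nonsense-mediated decay, and the exon is then called a poison exon.

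The sequences of 7 of the exons that passed the test are shown, because they carry the features described below: stop codons in frame, the RBFOX element GCATG, nested exon forms and short coding exons. They are GENCODE 29 transcript sequences (GRCh38), matched by gene, exon length and both intron lengths, 5′ to 3′ on the transcript strand. Positions are those of the authors' deposited table, for which the submitters' processing notes name hg19. Only stretches inside an annotated coding sequence, with its stop codon, are printed.
SF1, 205-nt exon, chr11:64533423-64533627, minus strand, capitals mark GCATG: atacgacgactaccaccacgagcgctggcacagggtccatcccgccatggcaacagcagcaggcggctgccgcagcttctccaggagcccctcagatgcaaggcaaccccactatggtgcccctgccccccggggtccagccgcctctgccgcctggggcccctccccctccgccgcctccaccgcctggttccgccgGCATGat
U2AF1L4, 113-nt exon, chr19:36235527-36235639, minus strand, capitals mark the nested 67-nt form: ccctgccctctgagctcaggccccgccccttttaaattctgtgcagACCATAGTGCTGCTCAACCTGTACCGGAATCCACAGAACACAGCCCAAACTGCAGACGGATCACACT
RBM23, 54-nt exon, chr14:23374815-23374868, minus strand, no capitals: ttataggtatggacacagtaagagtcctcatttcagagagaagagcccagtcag
LUC7L, 70-nt exon, chr16:278332-278401, minus strand, no capitals: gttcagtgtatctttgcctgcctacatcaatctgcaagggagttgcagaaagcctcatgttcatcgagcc
PRPF39, first 21 bases of the 163-nt exon, chr14:45565799-45565961, plus strand, capitals mark the stop codon in frame: acgctgtcattgatgctcTAA
RBM38, first 20 bases of the 96-nt exon, chr20:55967453-55967548, plus strand, capitals mark the stop codon in frame: gggattatttttgtcctTGA
LUC7L3, first 25 bases of the 66-nt exon, chr17:48828658-48828723, plus strand, capitals mark the stop codon in frame: cgttggtgttgtgagcggcccaTGA

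In 11 of the 125 genes, at least 1 cassette exon differed between the sets. An event was called when the authors' deposited table gave a false discovery rate (FDR) under 0.05 and an absolute inclusion difference of at least 0.1. An inclusion level is the part of the junction reads, scaled by length, that comes from transcripts with the exon. The difference, first minus second set by the convention of rMATS (the splicing program whose layout the table has), runs from -1 to 1. By these limits 15 of 428 events passed, 3.5%, beside 5.15% of all events in the authors' deposited table. They are 15 unique exons, 3.8% of the exons of these genes beside 5.73% of all exons, and the 11 genes are 8.8% of the 125 beside 13.7% of all genes. The first set was higher in 12 of the passing events (2.8% of the events of these genes, beside 2.77% of all events) and the second set in 3 (0.701%, beside 2.38%). Counting by FDR with no minimum difference gave 23 events (5.37%, beside 6.12%).

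**Figure D1:**
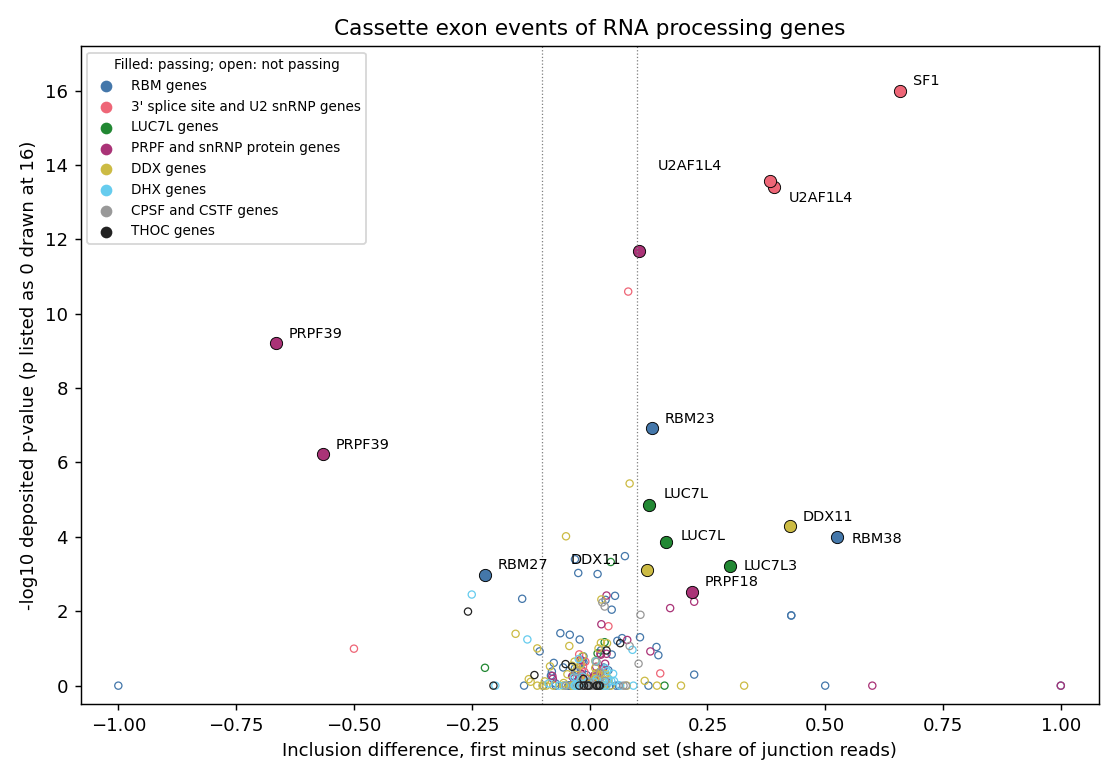
Each point is 1 of the 428 cassette exon events of RNA processing genes, with the inclusion difference (first minus second set) on the x axis and −log10 of the deposited p-value on the y axis. Filled points pass both limits, open points do not, dotted lines mark differences of -0.1 and 0.1, and SF1, whose p-value is listed as 0, is drawn at 16. The 1 filled point without a label is not described here. The filled points lie mostly to the right, and only those of PRPF39 and RBM27 lie to the left.

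Most events of these genes had small differences. The median absolute difference over all 428 events was 0.019, against 0.048 over the authors' deposited table, and 77.3% of the events lay under 0.05, against 50.6%. Differences reached 0.1 in either direction in 55 events (12.9%, beside 31.5% in the whole table). Of these 55, 40 did not pass (72.7%, beside 83.6% of such events in the whole table). The authors' deposited table gave a p-value of 1 to 239 of the 428 events (55.8%, beside 51.4%). Read depth per event was not analysed here. The 15 exons that passed had a median absolute difference of 0.297, against 0.271 over all passing exons, and the largest was 0.666 in PRPF39.

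By gene group, LUC7L and LUC7L3, the 2 LUC7L genes matched by symbol, each had a passing exon, with 3 of 15 events passing. LUC7L2 is not among the genes matched by symbol, so any events it has under another symbol are not counted. In the group of 3′ splice site and U2 snRNP genes 3 of 47 events in 2 of 9 genes passed, and among PRPF and snRNP protein genes 4 of 63 in 3 of 26 genes. RBM genes had 3 of 115 events in 3 of 31 genes, and DDX genes 2 of 103, both in DDX11, of 29 genes. No event passed in the authors' deposited rMATS test among 14 DHX genes (0 of 47 events, 1 with an unadjusted p-value under 0.05), 9 CPSF and CSTF genes (0 of 22, 3 with an unadjusted p-value under 0.05) or 5 THOC genes (0 of 16, 1 with an unadjusted p-value under 0.05). The CPSF and CSTF group was formed by symbol and includes CPSF3L (4 events), which GENCODE 29 names INTS11. The background is the 5.15% of all events and 13.7% of all genes given above for passing counts, and 12% of all events for unadjusted p-values under 0.05, and the groups were not tested against it or each other.

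**Figure D2:**
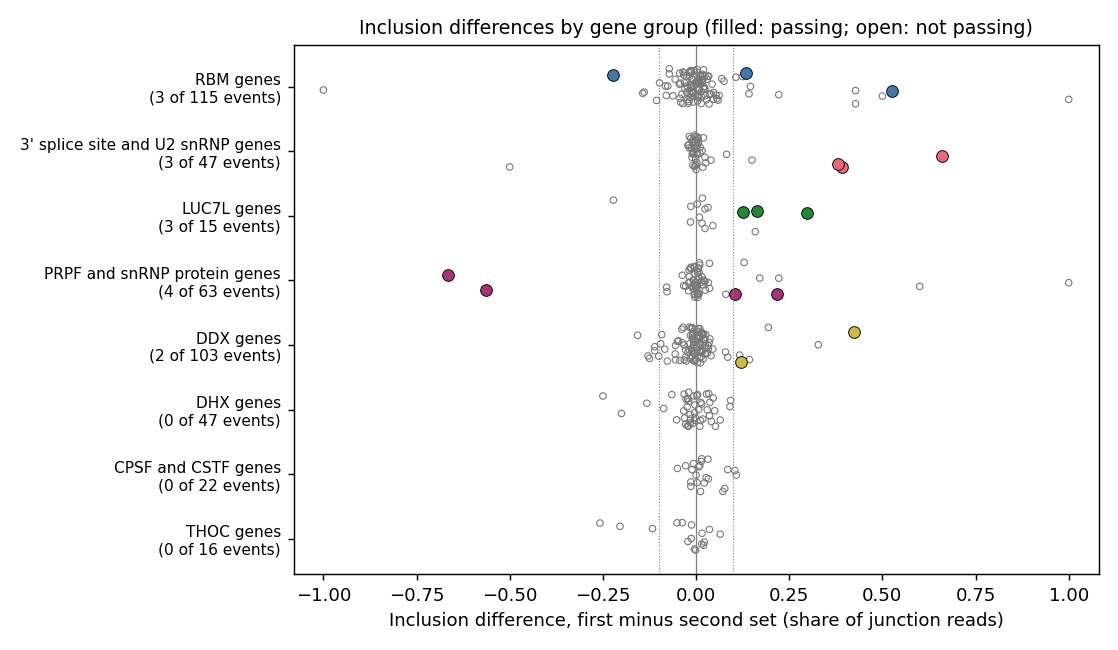
Inclusion differences (x axis, first minus second set) of all 428 events by gene group (y axis), with points spread vertically for legibility. Filled points passed, open points did not, and the label gives the passing events of all events in the group. In every group most points crowd at 0, and passing exons stand on both sides only among RBM genes and PRPF and snRNP protein genes.

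Among the proteins that recognise the 3′ end of the intron, SF1 and U2AF1L4 had the exons with the lowest p-values of all 428 events. SF1 binds the branch point before U2 snRNP does. For its coding 205-nt exon (ENSG00000168066) the authors' deposited table gave 0.659, with the p-value and FDR listed as 0, so their exact size is not known. In that event the exon lies between a 60-nt exon upstream and a 913-nt exon downstream. Set beside the neighbouring 180-nt exon instead, the same 205-nt exon was listed there at -0.019 with a p-value of 0.734. The 180-nt exon of SF1, which shares the skipping junction of the 205-nt event, had 0.082 (FDR 6.64e-09) in the authors' deposited table and so fell short of the minimum difference. The passing event therefore measures the 205-nt exon of SF1 in transcripts that leave out the 180-nt exon, and the remaining exons of SF1 lay between -0.005 and 0.011.

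U2AF1L4, a paralog of the U2AF1 subunit that contacts the AG of the 3′ splice site, had 2 passing forms of 1 exon (ENSG00000161265). The 113-nt form had a difference of 0.382 with an FDR of 1.45e-11, and the 67-nt form 0.392 with an FDR of 2.04e-11, both from the authors' deposited table. The forms end at the same base and differ only in where they start, as the capitals in the printed sequence show, and they share their skipping junction, so they are not independent results. The 67-nt form matches only transcripts annotated for decay, the 113-nt form such transcripts and a retained-intron transcript, and neither length is divisible by 3. The other exons of U2AF1L4 were listed at 0.15 (191 nt, p-value 0.469) and 0.04 (63 nt, p-value 0.0253, FDR 0.251) in the authors' deposited table.

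The core subunits of this step gave no passing exon. In the authors' deposited table U2AF1 had 5 events between -0.022 and 0.026, and U2AF2, the large U2AF subunit, 4 events between -0.008 and 0.01 (lowest p-values 0.144 and 0.854). SF3B1, the SF3B subunit that contacts the branch region, had 4 events between -0.006 and 0.003, all with a p-value of 1 in the authors' deposited table. SF3B3, with 15 events, reached -0.5 in 1 event of a 123-nt exon, for which the authors' deposited table gave a p-value of 0.101. With other flanking exons the same 123-nt exon of SF3B3 was listed at -0.003 and 0.006.

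**Figure D3:**
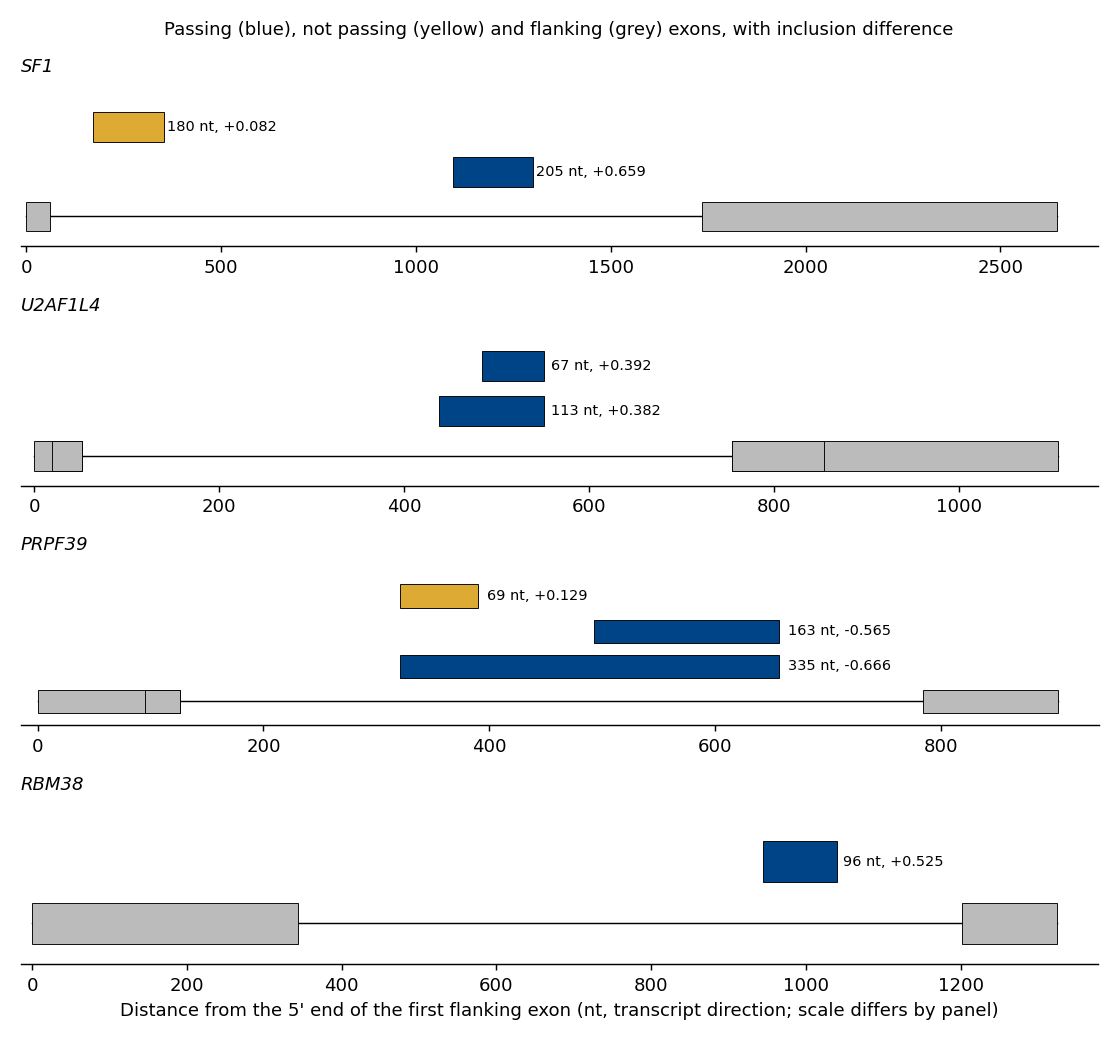
Exon maps of SF1, U2AF1L4, PRPF39 and RBM38 in the direction of transcription, with distance in nt from the 5′ end of the first flanking exon on the x axis (scale differs by panel). Blue boxes are passing exons, yellow boxes other exons listed in the same stretch and grey boxes flanking exons (lines inside mark alternative ends), each with its length and inclusion difference. The passing forms of U2AF1L4 (67 and 113 nt) and of PRPF39 (163 and 335 nt) are nested and share their 3′ end.

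The genes of U1 snRNP partners differed in direction. PRPF39, a U1-associated protein, had 2 nested exons that were included more in the second set (ENSG00000185246). The 335-nt form (chromosome 14, 45565627 to 45565961) had -0.666 (FDR 1.11e-07) and the 163-nt form -0.565 (FDR 4.2e-05), both from the authors' deposited table. They share their 3′ end and their skipping junction. Each meets a stop codon in frame near its start, at base 9 of the 335-nt and base 21 of the 163-nt form, and neither matches any transcript type other than nonsense-mediated decay. The 69-nt exon at the 5′ end of this stretch, spliced to the 163-nt exon, was listed at 0.129 with a p-value of 0.12 in the same table.

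LUC7L and LUC7L3 are homologs of yeast Luc7, a U1 snRNP protein that affects the choice of 5′ splice sites. In LUC7L (ENSG00000007392) the authors' deposited table gave the 64-nt exon (chromosome 16, 258600 to 258663) a difference of 0.127 with an FDR of 0.000627. For the 70-nt exon of LUC7L it gave 0.163 with an FDR of 0.00412. Neither length is divisible by 3, so inclusion shifts the frame when read from the upstream coding exon. In the protein-coding transcript that it matches, the 64-nt exon is at least partly untranslated. The 70-nt exon is fully coding in an annotated protein-coding transcript. The 6 other exons of LUC7L stayed between -0.015 and 0.032. In LUC7L3 (ENSG00000108848) the authors' deposited table listed the 66-nt exon at 0.297 (FDR 0.0138). Although 66 nt would keep the frame, the exon holds a stop codon in frame that ends at base 25. The exon matches no decay transcript, only a protein-coding one in which it is at least partly untranslated. A second LUC7L3 exon, of 193 nt, known only from decay transcripts and with a stop ending at base 74, had an FDR of 0.0113 but a difference of only 0.045.

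PRPF18 acts in the second catalytic step, and its 121-nt exon (ENSG00000165630; chromosome 10, 13633768 to 13633888, plus strand) was listed in the authors' deposited table at 0.218 with an FDR of 0.0495, next to the limit. Read from the upstream coding exon it meets a stop at base 39, while GENCODE 29 also lists coding transcripts whose protein starts within it. The large scaffold protein PRPF8 had 5 events between -0.012 and 0.004. SNRNP70, a core U1 protein, had 5 between -0.005 and -0.003. All 10 of these events had a p-value of 1 in the authors' deposited table.

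Of the RBM genes, RBM38, RBM23 and RBM27 passed. For RBM38, an RNA-binding protein induced by p53, the authors' deposited table gave the largest passing RBM difference, 0.525 for a 96-nt exon (ENSG00000132819; FDR 0.00323). With an upstream exon that ends elsewhere, the same RBM38 exon was listed at 0.024 with a p-value of 0.113. It matches only a decay transcript, in which a stop codon ends at base 20 of the exon. RBM23, a paralog of the splicing factor RBM39, had a 54-nt coding exon (ENSG00000100461) that keeps the frame, which the authors' deposited table lists at 0.133 (FDR 1.03e-05). RBM23 was also the gene with the most events, and its other 15 events did not pass, including 1 listed at -1 with a p-value of 1. RBM27 had the only passing RBM exon that was included more in the second set. The authors' deposited table lists this 165-nt coding exon (ENSG00000091009; chromosome 5, 145631274 to 145631438, plus strand) at -0.222 with an FDR of 0.0215. It also keeps the frame and holds no stop.

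DDX11 gave the only passing exons among the helicase genes. Despite its DEAD/H-box name, DDX11 is known as a DNA helicase that acts in sister chromatid cohesion, not as an RNA processing factor. Its 344-nt exon (ENSG00000013573; chromosome 12, 31230879 to 31231222, plus strand) was listed in the authors' deposited table at 0.425 (FDR 0.00186). The 158-nt coding exon of DDX11 (31237903 to 31238060) was listed there at 0.121 (FDR 0.0169) and shifts the frame. The table also lists 4 events for the related pseudogene DDX12P, and reads that fit both copies may have been split or assigned to either, so the DDX11 values are uncertain. Without DDX11, 13 of 418 events in 10 genes passed and no helicase gene had a passing exon. The RNA helicases DDX5 (5 events), DDX46 (9 events) and DDX3X (4 events) had none. In DDX5 the authors' deposited table gave a p-value of 0.737 or higher throughout, even at a listed difference of 0.194.

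**Figure D4:**
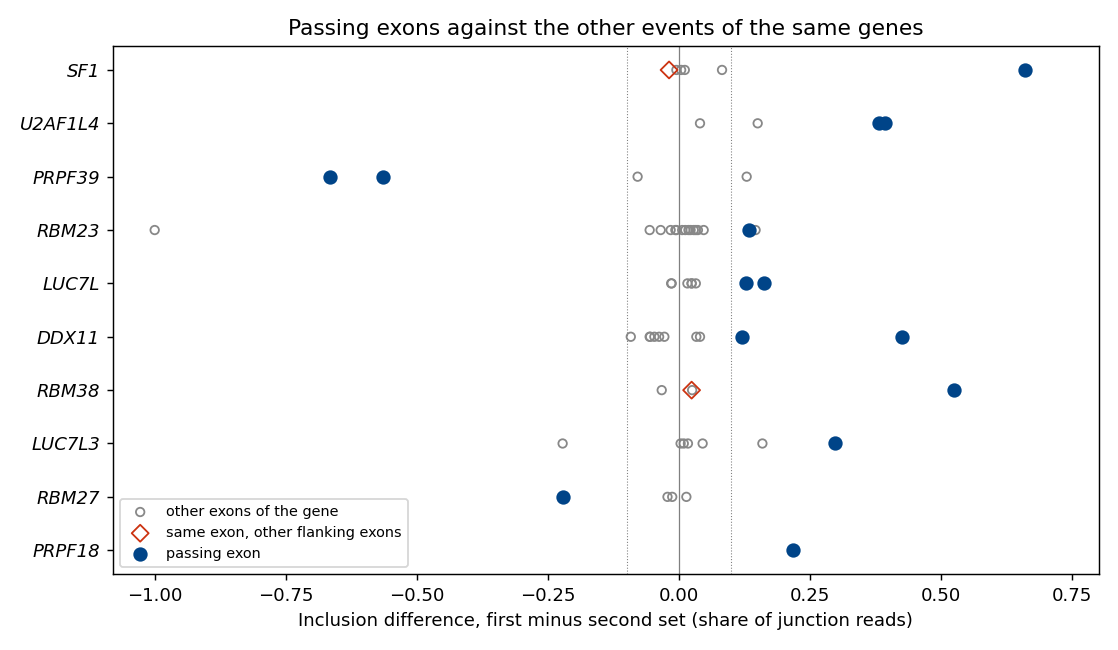
For 10 of the 11 genes (y axis, ordered by lowest p-value), inclusion differences (x axis, first minus second set) of the passing exons (filled), of the same exon with other flanking exons (diamonds) and of the other exons of the gene (open circles). In SF1 and RBM38 the passing exon lies at 0.659 and 0.525 and its second event near 0. The other exons of LUC7L and RBM27 lie within 0.04 of 0.

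Within each gene 1 or 2 exons passed. In 4 of the 11 genes 2 exons passed, nested forms in U2AF1L4 and PRPF39 and separate exons in LUC7L and DDX11, and in 7 genes 1, and 13 of the 15 were listed in a single event. The other exons of SF1, LUC7L, DDX11, RBM38 and RBM27 all lay under 0.1 in absolute difference in the authors' deposited table. In the same table at least 1 other exon of U2AF1L4 (0.15), PRPF39 (0.129), RBM23 (-1 and 0.146) and LUC7L3 (-0.222 and 0.159) reached 0.1 without passing. This describes cassette exon inclusion and not the abundance of the transcripts, which was not measured in this table.

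A further 8 of the 428 events passed the FDR limit with a difference under 0.1, beside 304 of 31408 in the whole table. Besides the SF1 and LUC7L3 exons above, they were in DDX42, an SF3B-associated helicase (37-nt coding exon, 0.085, FDR 0.000195), RBM5 (85-nt coding exon, 0.075, FDR 0.00845), DDX6, a helicase of mRNA decapping (129-nt coding exon, -0.05, FDR 0.00309), RBM33 (120-nt coding exon, -0.024, FDR 0.0197) and RBM39. RBM39 had 2, a coding 66-nt exon at 0.017 (FDR 0.0208) and a 72-nt exon known only from decay and non-coding transcripts, with a stop ending at base 43, at -0.031 (FDR 0.00979). All values for these 8 events are those of the authors' deposited table.

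Of the events that missed the FDR limit at an unadjusted p-value under 0.05, the 5 with the largest differences were in RBM47, THOC5, DHX35 and PRPF4B. RBM47, an RNA-binding protein known from APOBEC1 editing complexes, had 0.428 for both a 207-nt and an overlapping 445-nt exon (FDR 0.153). THOC5, a THO subunit, had -0.258 (116-nt exon, FDR 0.128), but the same exon in another event was listed at -0.051 (deposited p-value 0.263). DHX35 had -0.25 (96-nt exon, FDR 0.056). The kinase PRPF4B had 0.222 for a 204-nt exon (FDR 0.0787). None passed in the authors' deposited table, which does not show that these exons were equal between the sets.

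Of the 15 passing exons, 6 were fully coding in a GENCODE 29 protein-coding transcript (40%), against 236 of 351 matched other exons of the same genes (67.2%). Another 5 matched decay transcripts and no protein-coding one (33.3%, against 13.1%), and 4 lay at least partly in an untranslated region of a coding transcript (26.7%, against 10.3%). Over the whole table, matches to decay transcripts and no protein-coding one made up 9.95% of the passing and 10.2% of the other matched exons. Exons at least partly untranslated in a coding transcript made up 21.7% of the passing and 14.2% of the other matched exons there. The lengths of 5 of the 15, among them those of LUC7L3, RBM38, RBM27 and RBM23, are multiples of 3 (33.3%), as are 42.9% of those of the 380 other exons. A single reading frame could be read into 11 of the 15, and 8 of these met a stop codon in frame (5) or shifted the frame without one (3). In the other exons of these genes that could be read, the same held for 192 of 310 (61.9%), of which 61 met a stop. The remaining 3, RBM23 and RBM27 among them, kept the frame with no stop. Of the exons counted as frame shifts, those of LUC7L (70 nt) and DDX11 (158 nt) are fully coding in an annotated protein-coding transcript. The nested forms of U2AF1L4 and PRPF39 are counted separately here, and no test was run on these shares.

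The introns around the passing exons were shorter in the median than those around other exons. The median intron before the exon was 535 nt and the median intron after it 412 nt. The other exons of these genes had 1095 and 1334.5 nt, and those of the whole table had medians of 2134.5 and 1986 nt. Passing exons were between 54 and 344 nt long (median 113 nt), and the other exons of these genes had a median of 104 nt. Exceptions include LUC7L, with 11984 nt of intron before its 64-nt exon, and RBM27, with 14278 nt before its exon and 3067 nt after it. PRPF18 has 4615 nt before its exon and 5569 nt after it. DDX11 has 3617 nt before its 344-nt exon and 2811 nt after its 158-nt exon. These medians count the nested forms of U2AF1L4 and PRPF39 separately.

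The RBFOX element GCATG was searched on the transcript strand of the exons, not in the introns, for which no sequence was used here. It was present in 2 of the 15 passing exons (13.3%), among them that of SF1, and in 45 of the 351 other matched exons of these genes (12.8%). Over all genes, 10.2% of passing and 11.7% of other matched exons held it. In SF1 the element starts at base 199 and is followed by 2 bases. A match is a description of the letters and not a binding site.

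RNA processing genes outside these symbols were counted from 4 lists. Of 95 listed genes 75 had events, 254 in all, and 10 events in 8 genes passed (3.94% of events, beside 5.15% of all events, which is also the background for each list), 6 with the first set higher and 4 with the second. Among 34 spliceosome genes with events, 2 of 111 events passed, among them TXNL4A, a protein of the U4/U6.U5 tri-snRNP, at 0.119 (104-nt exon, FDR 1.37e-08) in the authors' deposited table. In 14 genes of the exon junction complex and of nonsense-mediated decay 4 of 60 events passed. The decay factor UPF3A had 0.485 (142-nt exon, FDR 4.8e-06) and 0.375 for an overlapping 99-nt form in the authors' deposited table. In 11 genes of 3′ end formation and export 1 of 43 events passed, a 108-nt exon of the polyadenylation factor FIP1L1 at 0.219 (FDR 0.000346). The 16 Sm-like and SMN complex genes had 3 of 40, including a 96-nt exon of GEMIN4 at -0.714 (FDR 1.25e-08).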

How the data were processed

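The authors' deposited table has the layout of the rMATS skipped-exon output with junction counts, per the file headers. The submitters' processing notes name STAR 2.7.3a and hg19 without a role. The rMATS version and annotation are not given in the sources used here. The authors deposited a p-value and an FDR per event. The FDR equalled a Benjamini-Hochberg adjustment over the table (largest gap 1.11e-16). The inclusion difference, entered as a score, is deposited as a number from -1 to 1, and its sign was read by the rMATS convention as first minus second set. The authors scaled inclusion reads by a deposited effective length (94 nt for skipping, up to 188 nt for inclusion), so short exons have fewer read positions. The 6 columns per library match no clone label and were not used; depth per library is therefore unknown. Whether p-values reflect biological spread rests on 2 clones per set.

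Events were collapsed to exons by position. Exons were matched to GENCODE 29 (123 of 125 gene identifiers found) by gene, exon length and intron lengths, since only 5 of the genes lie within their GRCh38 bounds. Frames came from coding or decay transcripts that run through the upstream exon, and an exon with more than 1 possible frame was not read. Named exons are all that passed, events under the FDR limit with smaller differences, and the 5 largest others with an unadjusted p-value under 0.05; other genes were named after their values were seen. Some of these exons are not reported here. Genes and lists were chosen with earlier results of these data known. Alternatives were FDR limits of 0.01 and 0.1, no minimum difference or 0.2, Bonferroni correction, leaving out read-through and pseudogene symbols, and correcting an exon's lowest p-value for its events. The calls and the collapse to exons were tested on simulated data (drawn p-values), not the matching to transcripts or the frames. Python 3.11.15, pandas 2.3.3, numpy 2.4.6 and matplotlib 3.10.9 were used.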

Additional observations from a re-analysis of the deposited data

How the results depend on the processing

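Without a minimum difference 23 events and 23 exons passed, in 16 genes, and the median absolute difference fell to 0.133; small differences enter by construction. Under a Bonferroni correction over all events of the table, 7 events and 7 exons in 5 genes passed (SF1, U2AF1L4, PRPF39 and RBM23 among them), 1.5% of the whole table doing so. Under the other alternatives the count of events ranged from 10 (minimum difference 0.2, passed by 3.54% of all events) to 18 (FDR under 0.1, passed by 6.19%), and the first set was higher in 70% to 84.6% of exons over all alternatives, against 80%. Counting overlapping forms once, an alternative chosen after seeing the data, left 13 exons. Of the 15 named exons 5 passed under an FDR of 0.01, Bonferroni correction and a minimum difference of 0.2 alike: those of SF1, U2AF1L4 and PRPF39. No paired analysis was possible because the columns of the table carry no replicate number. Leaving out each clone and the model of levels per library were not run, since no column names a clone, so how far 1 clone decides a call was not tested.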
